A study of Mus musculus with 12 samples.

Results

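Of the mouse Cyp4a genes, 6 (Cyp4a10, Cyp4a12a, Cyp4a12b, Cyp4a14, Cyp4a31 and Cyp4a32) were followed through 3 stages of the hepatocyte lineage. They were taken by symbol, and all 6 were found by their Ensembl identifiers among the 53715 genes of the count table. All 6 passed the filter of more than 10 counts in at least 1 library and belonged to the 17779 genes tested. All 6 exceeded that number in every mature hepatocyte library, while Cyp4a12b did so in no other group and no member did in hepatoblasts. The poly(A) RNA of 12 samples from C57BL/6JOlaHsd mice, with no engineered allele named, was sequenced in 4 replicates per group. Hepatoblasts, the fetal precursors of hepatocytes and bile duct cells, were Dlk1+ cells pulled by magnetic beads from livers pooled at embryonic day E14.5 and lysed at once. Diff. hepatocytes were such E14.5 cells kept for 4 days on fibronectin, in medium with serum, insulin, transferrin, selenium, dexamethasone and Matrigel. Mature hepatocytes came from perfused livers of male mice 8 to 12 weeks old and were lysed without culture. Per the study's methods the mice ate chow freely under a light and dark cycle. The sex of the embryos and the hour of collection are not given in the sources used here. Age, sex and culture therefore cannot be told apart between the cultured and the adult cells.

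Cyp4a enzymes are cytochrome P450 monooxygenases of the endoplasmic reticulum. They oxidise the terminal (omega) carbon of fatty acids, and the product is converted by alcohol and aldehyde dehydrogenases to dicarboxylic acids that peroxisomes shorten. Cyp4a10 and Cyp4a14 are classic target genes of PPARα, the nuclear receptor that responds to fatty acids and fibrate drugs. Cyp4a12a, which also makes omega-hydroxylated arachidonic acid, is known as a male-biased gene of mouse liver and kidney. Cyp4a12b is its near copy, while Cyp4a31 and Cyp4a32 resemble Cyp4a10 and have been studied less.

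The genes lie close together on chromosome 4, at chr4:115299046-115621602 of GRCm38, in a stretch of 322.6 kb that holds 13 annotated genes, 6 of them pseudogenes. The other protein-coding gene there, Cyp4a30b, had 0 counts over all libraries. The order is Cyp4a12a, Cyp4a12b, Cyp4a14, Cyp4a10, Cyp4a31 and Cyp4a32, and Cyp4a14 alone is on the minus strand. The members fall into 3 sequence groups. Cyp4a12a and Cyp4a12b had 98.49% identical coding bases, with 23 differences over 1524. Cyp4a10 was 96.59% identical to Cyp4a31 and 97.18% identical to Cyp4a32, and Cyp4a31 and Cyp4a32 shared 96.01%. Cyp4a14 stood alone, with 75.41% to 76.09% identity to every other member. The stretch that encodes the heme-binding signature common to P450 enzymes is shown because it is the same, base for base, within each group. It spans an exon junction in every member, and capitals mark the bases that differ from Cyp4a10 in the GENCODE M21 coding transcripts.
Cyp4a10, Cyp4a31 and Cyp4a32: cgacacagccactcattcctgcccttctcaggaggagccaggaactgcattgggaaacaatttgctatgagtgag
Cyp4a12a and Cyp4a12b: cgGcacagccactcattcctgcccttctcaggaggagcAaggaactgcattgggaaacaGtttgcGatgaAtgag
Cyp4a14: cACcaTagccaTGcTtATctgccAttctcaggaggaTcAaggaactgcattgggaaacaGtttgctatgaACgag

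A read of 75 bases from such a stretch cannot be given to 1 gene. Of all 75-base sequences in the transcripts, 40.8% of those of Cyp4a12a and 41.3% of those of Cyp4a12b occurred in the other gene of the pair. For Cyp4a10, Cyp4a31 and Cyp4a32, 18.4%, 12.8% and 28.0% occurred in another gene, and for Cyp4a14 none did. The members can be told apart where they differ, so stretches of coding exon found in no other gene are shown next. Capitals mark the bases that vary within the group, at 11 positions among the first 3 genes and 6 in the last pair. The first 3 are coding bases 190 to 264, at chr4:115519630-115519704, chr4:115565010-115565084 and chr4:115602260-115602334, and the last pair are coding bases 676 to 750, at chr4:115326674-115326748 and chr4:115432927-115433001, all on the plus strand of GRCm38.
Cyp4a10: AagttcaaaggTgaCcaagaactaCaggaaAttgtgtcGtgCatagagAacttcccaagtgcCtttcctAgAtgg
Cyp4a31: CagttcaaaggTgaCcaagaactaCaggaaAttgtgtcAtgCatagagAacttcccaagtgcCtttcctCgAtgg
Cyp4a32: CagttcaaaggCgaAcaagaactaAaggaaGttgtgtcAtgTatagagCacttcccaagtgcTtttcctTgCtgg
Cyp4a12a: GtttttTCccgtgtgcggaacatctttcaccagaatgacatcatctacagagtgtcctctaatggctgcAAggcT
Cyp4a12b: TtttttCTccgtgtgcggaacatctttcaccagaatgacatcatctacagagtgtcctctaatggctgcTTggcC
In this window Cyp4a10 and Cyp4a31 differed at 3 bases, whereas Cyp4a32 differed from them at 11 and 9. Values of Cyp4a10, Cyp4a31 and Cyp4a32 in the same library, and those of the Cyp4a12 pair, may thus hold some of each other's reads or have lost shared ones, and sums over each group are given where they matter.

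Each library held 19581551 to 25216977 counts on genes. Levels are CPM, counts scaled to a common library size with TMM factors, a normalisation that assumes most genes keep their level, and 1 count was worth 0.0298 to 0.0685 CPM. The labelled cell types carried their markers. Summed over 4 hepatoblast markers, the level was 31387 to 52888 CPM before culture, 16618 to 21053 CPM after it and 37.1 to 67.8 CPM in the adult cells. The summed level of 9 hepatocyte genes was 39348 to 66178, 72014 to 81531 and 128784 to 180094 CPM in the same order. Hepatoblast replicate 1 stood apart by 2457 CPM over 9 erythroid genes, against 297 to 489 in the other hepatoblast libraries. Over 5 bile duct genes the sum was 12.9 to 15.05 CPM in hepatoblasts, 69.9 to 213 in Diff. and 15.4 to 40.6 in mature hepatocytes. Krt7 and Krt19, with means of 41.9 and 47.2 CPM, made up most of the Diff. sum. Sox9 had means of 4.73, 4.76 and 9.06 CPM in the same order, and Spp1 had 4.12, 8.37 and 16.3 CPM, so these markers did not move alike. Over 8 mesenchymal genes it was 1220 to 2211, 1237 to 2925 and 35.8 to 61.1 CPM, and over 7 endothelial genes 32.4 to 126, 4.75 to 9.89 and 121 to 218 CPM. Among the cultures, replicate 1 had the highest bile duct and mesenchymal sums, although its Reln was the lowest, at 62.2 CPM. The part of these cells in the Cyp4a values was not tested. In bulk samples, fewer cells of a type and less RNA per cell cannot be told apart. The replicates are called biological in the study's methods.

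Hepatoblasts held almost no Cyp4a RNA. Cyp4a10 had 1, 5, 3 and 1 counts in replicates 1 to 4, and Cyp4a14 had 1, 7, 6 and 2. Cyp4a31 had 2, 1, 4 and 1 counts, and Cyp4a32 had 1, 5, 1 and 0. Cyp4a12a had 0, 3, 3 and 1 counts, and Cyp4a12b had 0, 0, 2 and 0. No member exceeded 7 counts in any of these libraries, the floor that a count of 0 allows being 3 counts, or 0.0895 to 0.0994 CPM.

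In Diff. hepatocytes 4 of the 6 genes were present, led by Cyp4a31. Cyp4a31 stood at 101, 166, 124 and 154 CPM in replicates 1 to 4, and was the most abundant member per kilobase of exon in each library. Cyp4a14, the stand-alone PPARα target, had 24.3, 112, 49.8 and 50.0 CPM. Cyp4a10 had 26.5, 43.1, 25.8 and 26.6 CPM. Replicate 2 was the highest for all 3 genes and also for Cyp4a32, at 3.89, 8.73, 5.64 and 6.55 CPM. Replicate 1, with the most bile duct and mesenchymal marker RNA, was the lowest for Cyp4a14, Cyp4a31 and Cyp4a32. Cyp4a12a had 11, 5, 5 and 1 counts, at most 0.475 CPM, and Cyp4a12b had 0, 0, 0 and 2 counts. The Cyp4a12 pair was therefore close to undetected in the cultures.

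In mature hepatocytes all 6 genes were present and a different set was abundant. Cyp4a10 had 712, 127, 345 and 506 CPM in replicates 1 to 4, and Cyp4a14 had 1023, 58.9, 214 and 909 CPM. Cyp4a12a had 341, 370, 414 and 270 CPM. Cyp4a12b had 124, 125, 117 and 68.1 CPM. Replicate 2 was the lowest for Cyp4a10 and Cyp4a14, whereas replicate 4 was the lowest for the Cyp4a12 pair and lay well below the other 3 for Cyp4a12b. Cyp4a32 had 48.6, 20.1, 26.0 and 29.2 CPM, and Cyp4a31 had 19.3, 5.71, 10.2 and 12.9 CPM. The gene that led in the cultures was thus the scarcest member, per kilobase of exon, in every adult library.

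**Figure D1:**
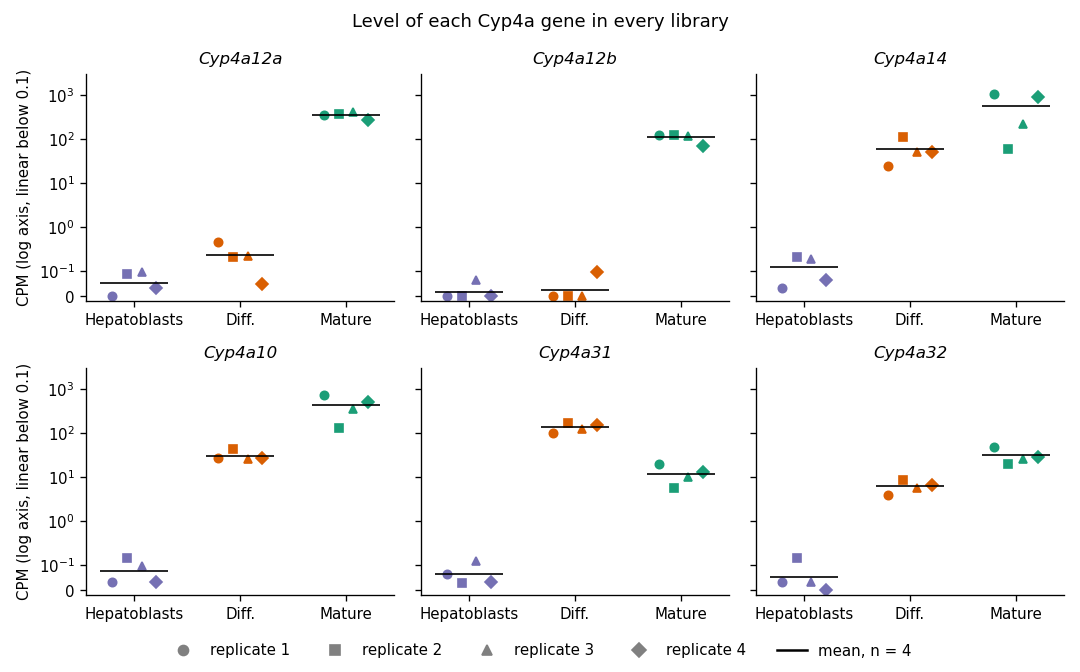
Level of each Cyp4a gene in CPM (log axis, linear below 0.1) in the 12 libraries, with symbols for replicates and a line for the mean of 4. Hepatoblasts lie near 0 for all 6 genes, the Diff. libraries hold Cyp4a31, Cyp4a14, Cyp4a10 and Cyp4a32 but not the Cyp4a12 pair, and Cyp4a31 is the only panel in which Diff. libraries lie above the mature ones.

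The order of the members was compared per kilobase of exon, since their exons span 1.536 to 2.601 kb. In Diff. hepatocytes the levels were 54.2 ± 11.8 CPM per kb for Cyp4a31, 22.7 ± 14.3 for Cyp4a14, 14.47 ± 3.97 for Cyp4a10 and 4.04 ± 1.31 for Cyp4a32 (SD, n = 4). Cyp4a31 was above Cyp4a14 in 4 of 4 libraries, although the ranges of the genes overlapped. Cyp4a14 was above Cyp4a10 in 3 of 4 libraries, so these neighbours did not differ beyond their spread. In mature hepatocytes Cyp4a14, Cyp4a10 and Cyp4a12a had 212 ± 187, 200.3 ± 117 and 144 ± 25.03 CPM per kb, and each was above the next in only 2 of 4 libraries. Their order is thus not settled. Cyp4a12b followed with 45.2 ± 11.3, Cyp4a32 with 20.2 ± 8.02 and Cyp4a31 with 4.80 ± 2.27 CPM per kb. Counting only sequence found in no other gene, the means of the first 3 became 218, 246 and 251 CPM per unique kb, so that Cyp4a12a came first and Cyp4a14 last among them.

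The composition of the family differed between the cultures and the adult cells, and so did its total. The 6 genes together gave 64.7, 135, 84.4 and 97.6 CPM per kb in Diff. replicates 1 to 4, and 963, 303, 487 and 753 CPM per kb in mature replicates 1 to 4. The groups did not overlap, and hepatoblasts stayed at or under 0.297 CPM per kb. Cyp4a31 made up 58.0% ± 6.40 of this sum in Diff. hepatocytes and 0.767% ± 0.0662 in mature hepatocytes (SD, n = 4). Cyp4a12a and Cyp4a12b made up 0.125% ± 0.124 and 0.0105% ± 0.0211 in the cultures. In the adult cells they held 28.7% ± 17.3 and 9.09% ± 6.02. Cyp4a10 went from 15.5% ± 2.78 to 30.1% ± 6.94, and Cyp4a32 stayed at 4.21% ± 0.211 and 3.403% ± 0.742. Cyp4a14 held 22.1% ± 7.26 and 27.9% ± 18.7, a difference smaller than its spread in the mature libraries. By sequence found in no other gene, Cyp4a31 held 56.9% ± 6.08 in Diff. and 0.612% ± 0.0722 in mature hepatocytes.

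**Figure D2:**
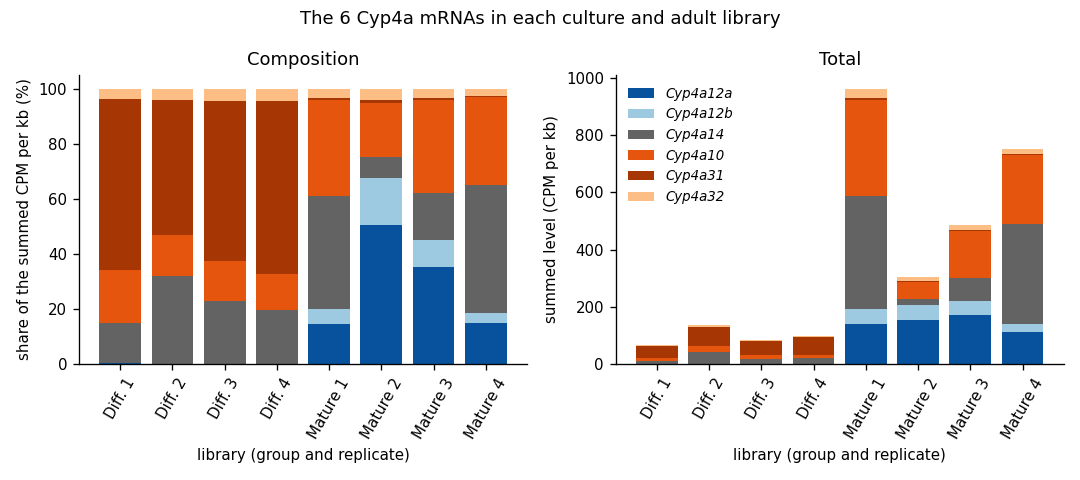
Share (left, %) and summed level (right, CPM per kb) of the 6 Cyp4a mRNAs in each Diff. and mature library. Cyp4a31 fills 48.9% to 62.9% of each Diff. bar and under 1% of each mature bar, while the mature total ranges from 303 to 963 CPM per kb.

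The first comparison asks which members changed as hepatoblasts differentiated in culture. Of the 6 genes, 4 rose and none fell, where 14.9% of all tested genes were called higher and 14% lower (adjusted p under 0.01 and a log2 fold change beyond 1, edgeR quasi-likelihood test). The members' median log2 fold change was 7.58, against -0.013 over all tested genes. Cyp4a31 rose most, by a log2 fold change of 10.94 ± 0.49 (SE; adjusted p = 1.66e-09). Cyp4a14 followed with 8.80 ± 1.14 (adjusted p = 1.95e-05) and Cyp4a10 with 8.49 ± 0.68 (adjusted p = 2.36e-07). Cyp4a32 rose by 6.67 ± 0.53 (adjusted p = 2.28e-07), or 7.82 without hepatoblast replicate 2, which held 5 of its 7 hepatoblast counts. For these 4 genes every Diff. library lay above every hepatoblast library. Each gave an exact permutation p of 0.0286, the smallest that 4 against 4 libraries allow (two-sided). The hepatoblast side of these folds is only 7 to 16 counts per gene over 4 libraries.

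The Cyp4a12 pair did not pass that test. Cyp4a12a had 22 counts in Diff. hepatocytes against 7 in hepatoblasts, a ratio of 4.43 with a 95% interval of 1.83 to 12.3 from counting error alone, and its groups overlapped (edgeR adjusted p = 0.0199; exact permutation p = 0.0857). DESeq2 called it, with an adjusted p of 0.00228, and so did edgeR without Diff. replicate 4 (adjusted p = 0.00595). With the fold threshold inside the test neither DESeq2 (adjusted p = 0.365) nor edgeR (adjusted p = 0.115) did. Cyp4a12b had 2 counts in either group, which is under the floor, so no fold is given. The sum of both genes gave an adjusted p of 0.023.

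The second comparison sets the adult cells against the fetal precursors. All 6 members rose, where 20.1% of tested genes were called higher and 24.7% lower. Their median log2 fold change was 12.15 against -0.15 over all tested genes. With at most 10 counts of any member in each hepatoblast library, the filter admitted all 6 through other groups. It thus largely set this direction, which it did not do for all tested genes. Cyp4a10 rose by 12.28 ± 0.70 (edgeR adjusted p = 3.24e-09) and Cyp4a14 by 12.02 ± 1.19 (adjusted p = 7.83e-07). Cyp4a32 rose by 8.99 ± 0.52 (adjusted p = 3.8e-09), or 10.14 without hepatoblast replicate 2. Cyp4a31 rose least, by 7.44 ± 0.51 (adjusted p = 2.07e-08). For Cyp4a12a the 22195 counts of the mature libraries stood against 7 in hepatoblasts, a normalised ratio of 6280 with a counting interval of 3050 to 15600. For Cyp4a12b 6851 counts stood against 2, a ratio of 6780 with a counting interval of 1880 to 56000. Both intervals cover counting error only. Both genes were called (edgeR adjusted p = 8.24e-12 and 4.85e-11). The mature libraries lay above the hepatoblast libraries without overlap for all 6 genes, each at the smallest exact permutation p of 0.0286. With library totals in place of TMM the fold changes of Cyp4a10, Cyp4a14, Cyp4a32 and Cyp4a31 were 11.42, 11.13, 8.15 and 6.60, and all 6 genes were still called.

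The third comparison asks how far the cultures came to the adult state. Cyp4a31 was higher in Diff. hepatocytes and the other 5 members were lower, where 20.2% of tested genes were called higher and 15.6% lower. The median log2 fold change was -3.51 for the members and 0.092 for all tested genes. Cyp4a31 was 11.3-fold higher in the cultures, a log2 fold change of 3.50 ± 0.29 (edgeR adjusted p = 2.52e-07), and the lowest Diff. library, at 101 CPM, exceeded the highest mature library, at 19.3 CPM. Cyp4a10 was lower by a log2 fold change of -3.79 ± 0.42 (adjusted p = 3.4e-06), without overlap. Cyp4a32 was lower by -2.32 ± 0.32 (adjusted p = 2.59e-05), also without overlap. The exact permutation p was 0.0286 for each of these 3 genes and for both genes of the Cyp4a12 pair. Cyp4a12a was lower by -10.44 ± 0.32 (adjusted p = 2.44e-11), and its mature-to-Diff. ratio of counts was 1420 with a counting interval of 937 to 2260. For Cyp4a12b the ratio was 4820 with a counting interval of 1330 to 39800. Cyp4a12b passed the filter through the mature libraries alone, so its direction here was set by the filter.

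Cyp4a14 was the least certain of these calls. It was lower in Diff. hepatocytes by a log2 fold change of -3.22 ± 0.72 (edgeR adjusted p = 0.00147). Diff. replicate 2, at 112 CPM, lay above mature replicate 2, at 58.9 CPM, so the groups overlapped and the exact permutation p was 0.0571. With the fold threshold placed inside the DESeq2 test the adjusted p was 0.038 and the gene was no longer called.

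Summing the near-identical genes undoes reads exchanged between them but cannot restore shared reads that were lost. It also hides the course of the scarcer genes. Cyp4a10, Cyp4a31 and Cyp4a32 together had 131, 218, 155 and 187 CPM in Diff. replicates 1 to 4, and 780, 153, 381 and 548 CPM in mature replicates 1 to 4. These ranges overlapped through mature replicate 2. The sum, most of it Cyp4a10 in the mature libraries and Cyp4a31 in the cultures, was lower in Diff. hepatocytes by a log2 fold change of -1.43 ± 0.37 (edgeR adjusted p = 0.00385). The Cyp4a12 pair together was lower by -10.70 ± 0.32 (adjusted p = 1.93e-11).

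**Figure D3:**
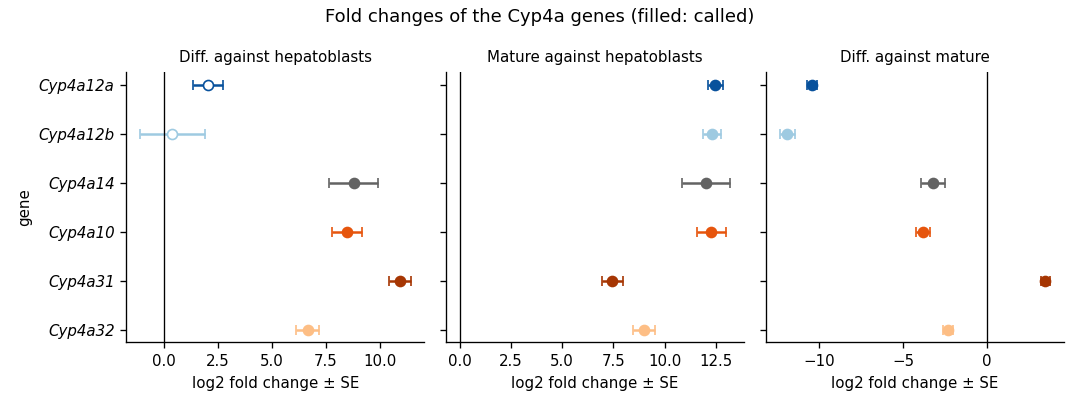
Fitted log2 fold change ± SE of each Cyp4a gene in the 3 comparisons (12 libraries in 1 edgeR fit), filled where called. All 6 genes lie right of 0 for mature hepatocytes against hepatoblasts, and Cyp4a31 alone lies right of 0 for Diff. against mature hepatocytes. Every member in hepatoblasts (2 to 16 counts) and the Cyp4a12 pair in Diff. hepatocytes (22 and 2 counts) had very few reads. The fitted values that use them depend on those reads.

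Ratios of 2 members within 1 library do not depend on scaling between libraries. They were tested for the 6 pairs of Cyp4a10, Cyp4a14, Cyp4a31 and Cyp4a32 that had more than 10 counts in all 8 Diff. and mature libraries. The log2 ratio of Cyp4a10 to Cyp4a31 counts was -2.53 to -1.92 in Diff. and 4.48 to 5.29 in mature hepatocytes, a difference of -7.18 between the means. That of Cyp4a14 to Cyp4a31 was -2.05 to -0.57 and 3.37 to 6.14, a difference of -6.30. That of Cyp4a31 to Cyp4a32 was 4.25 to 4.69 and -1.82 to -1.18, a difference of 5.91. These 3 ratios, all with Cyp4a31, did not overlap between the groups and each reached the smallest exact permutation p of 0.0286, which is 0.0572 after Benjamini-Hochberg adjustment over the 6 ratios. The ratio of Cyp4a10 to Cyp4a32 differed by -1.27, with overlap (exact permutation p = 0.0571, adjusted 0.0857). Cyp4a14 to Cyp4a10 differed by 0.88 (exact permutation p = 0.171, adjusted 0.205) and Cyp4a14 to Cyp4a32 by -0.39 (exact permutation p = 0.657, also after adjustment). Neither of these last 2 differences exceeded the spread between libraries.

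**Figure D4:**
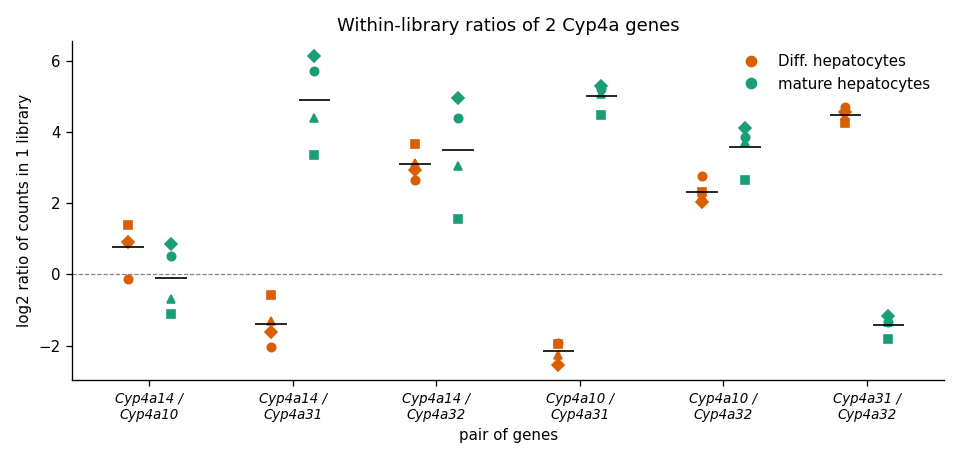
Log2 ratio of the counts of 2 Cyp4a genes in each Diff. (orange) and mature (green) library, with symbols for replicates as in the plot of levels and a line for the mean of 4. The 3 pairs that hold Cyp4a31 separate the groups, with differences of -7.18, -6.30 and 5.91 between the means, and the 3 pairs without it overlap.

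Cyp4a14 and Cyp4a10 differed widely between the adult livers. From the lowest to the highest mature library Cyp4a14 spanned 17.4-fold and Cyp4a10 spanned 5.61-fold. Cyp4a31 spanned 3.39-fold, Cyp4a32 2.41-fold, Cyp4a12b 1.83-fold and Cyp4a12a 1.54-fold. The SD of log2 CPM over the 4 mature libraries was 1.946 for Cyp4a14 and 1.075 for Cyp4a10, larger than for 99.91% and 99.38% of the 8072 genes with a mean of at least 10 CPM, whose median SD was 0.161. In Diff. hepatocytes the SD of Cyp4a14 was 0.898, larger than for 99.68% of 8127 such genes, and those of Cyp4a10 and Cyp4a31 were 0.355 and 0.327.

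Replicate 2 of the mature hepatocytes was the lowest for Cyp4a10, Cyp4a14, Cyp4a31 and Cyp4a32, and replicate 4 for the Cyp4a12 pair. Replicate 2 was the lowest of the 4 for 32.3% of all genes with a mean of at least 10 CPM, and replicate 3 for 24.7%. Of 33 listed PPARα target genes, 8 (24.2%) were lowest in replicate 2 and 22 (66.7%) in replicate 3. Most of that list was thus lowest in replicate 3, unlike Cyp4a10 and Cyp4a14. Those low in replicate 2 included Ehhadh, a peroxisomal beta-oxidation enzyme, at 652, 305, 491 and 609 CPM, and the fasting hormone gene Fgf21, at 12.1, 1.48, 8.46 and 12.2 CPM. Cpt1a, which admits fatty acids to mitochondria, was not low there, at 697, 842, 523 and 847 CPM. Replicate 2 also had the lowest summed hepatocyte genes, 128784 CPM. The part of that in the Cyp4a values was not tested.

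Ppara, the gene of the receptor described above, rose by a log2 fold change of 2.01 ± 0.22 in Diff. hepatocytes against hepatoblasts (edgeR adjusted p = 3.68e-06), with 34.2 ± 7.93, 138 ± 19.0 and 241 ± 71.0 CPM in hepatoblasts, Diff. and mature hepatocytes (SD, n = 4). Between Diff. and mature hepatocytes its log2 fold change was -0.81 ± 0.21 (adjusted p = 0.00404), which is under the fold threshold. Of 10 genes for PPAR receptors, their RXR partners and cofactors, 4 rose in culture and none fell, beside 14.9% and 14% of all tested genes. These were Ppara, Pparg, the partner receptor gene Rxra (log2 fold change 1.69 ± 0.13) and the coactivator gene Ppargc1b (4.10 ± 0.24). Between Diff. and mature hepatocytes 1 was higher, Ppargc1a (1.68 ± 0.23), and 3 were lower, Rxrg, Pparg and Rxra (-7.46 ± 0.48, -1.95 ± 0.29 and -1.22 ± 0.13), beside 20.2% and 15.6% of all tested genes, so 1 and 3 of 10 are not far from the background.

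Listed PPARα targets outside the family mostly rose in culture and mostly stayed below the adult level. Of 33, 18 rose and 3 fell in Diff. hepatocytes against hepatoblasts, beside 14.9% and 14% of all tested genes. Their median log2 fold change was 1.08 against the members' 7.58. Those that rose included Cpt1a (3.91 ± 0.17) and the lipid droplet gene Cidec (6.27 ± 0.29). The 3 that fell were the acyl-CoA thioesterase genes Acot3, Acot4 and Acot1 (-4.97 ± 0.66, -2.86 ± 0.32 and -2.26 ± 0.35). Against mature hepatocytes, 19 of the 33 were lower in Diff. hepatocytes and 2 were higher, beside 15.6% and 20.2% of all tested genes. The median of the list was -1.16. The fatty acid binding protein gene Fabp1 (-4.75 ± 0.23), Acaa1b, a peroxisomal thiolase gene (-4.61 ± 0.29), and the lipase gene Mgll (-4.81 ± 0.54) were among the lower ones. The 2 higher genes were Pdk4, a brake on pyruvate use (3.16 ± 0.44), and the thioesterase gene Acot2 (2.5 ± 0.27).

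The steps that act with and after Cyp4a were followed in a list of 14 genes, 13 of them tested and some shared with the PPARα list. In Diff. hepatocytes 9 of the 13 rose against hepatoblasts and none fell, beside 14.9% and 14% of all tested genes. Their median log2 fold change was 1.38. Por, the reductase that feeds electrons to P450 enzymes, rose by 2.89 ± 0.26, to 820 ± 54.5 CPM against 505 ± 221 CPM in mature hepatocytes. The alcohol dehydrogenase genes Adh1 and Adh4 rose by 2.97 ± 0.33 and 1.92 ± 0.48. All 13 rose in mature hepatocytes against hepatoblasts, beside 20.1% of all tested genes, with a median of 2.84. Against mature hepatocytes 11 were lower in Diff. hepatocytes and none higher, beside 15.6% and 20.2% of all tested genes. The median was -1.75. Adh4 (-8.61 ± 0.27) and Adh1 (-4.99 ± 0.35), which oxidise the omega alcohols, and the peroxisomal thiolase gene Scp2 (-4.13 ± 0.16) were the furthest below.

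Other Cyp4 genes gave a further comparison within the superfamily. Of 14 listed, 9 were tested. Cyp4a29 and Cyp4a30b, the Cyp4a genes on that list, had too few counts to be tested. In mature hepatocytes against hepatoblasts 6 rose and 1, Cyp4f16, fell (-2.31 ± 0.17), beside 20.1% and 24.7% of all tested genes. Cyp4f14, a leukotriene omega-hydroxylase gene, was nearly absent outside the adult cells as the Cyp4a12 pair was, with 0.119 ± 0.0598 CPM in hepatoblasts, 0.102 ± 0.0914 CPM in Diff. and 372 ± 47.6 CPM in mature hepatocytes (SD, n = 4). In Diff. hepatocytes 3 rose against hepatoblasts, beside 14.9% of all tested genes. These were Cyp4b1, Cyp4f13 and Cyp4f17 (5.15 ± 0.42, 2.07 ± 0.15 and 1.54 ± 0.25). Against mature hepatocytes 5 were lower and 1, Cyp4f16, was higher (2.41 ± 0.17), beside 15.6% and 20.2% of all tested genes.

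Because the adult cells were from males and Cyp4a12a is known as male-biased, sex-biased liver genes were set beside it. All 9 listed male-biased genes were lower in Diff. than in mature hepatocytes, where 15.6% of all tested genes were. Their median log2 fold change was -9.43 beside -10.44 for Cyp4a12a. Mup20, a urinary protein gene, had 4.48 ± 1.03 CPM in Diff. and 3097 ± 383 CPM in mature hepatocytes, and the steroid enzyme gene Hsd3b5 had 0.158 ± 0.0327 and 370 ± 80.0 CPM. Of 13 listed female-biased genes 8 were tested, and 7 were higher in Diff. hepatocytes and none lower, beside 20.2% and 15.6% of all tested genes. They included the sulfotransferase gene Sult2a1 (8.94 ± 0.58) and the P450 genes Cyp3a44 and Cyp3a16 (6.96 ± 0.64 and 6.26 ± 0.41). Not all of them rose in culture. Against hepatoblasts 4 of the 8 were higher in Diff. hepatocytes and 1, Cux2, was lower (-3.49 ± 0.27), beside 14.9% and 14% of all tested genes. Cyp3a16 had 17.5 ± 8.31, 20.9 ± 1.99 and 0.269 ± 0.111 CPM in hepatoblasts, Diff. and mature hepatocytes (SD, n = 4). Growth hormone signalling sets the sex bias of mouse liver. Of 11 listed genes of that pathway, 5 were lower in Diff. than in mature hepatocytes, beside 15.6% of all tested genes. Cux2, which is also 1 of the 7 female-biased genes above, was the single higher one (1.53 ± 0.33), beside 20.2%. The receptor gene Ghr (-3.41 ± 0.14) and the hormone-responsive genes Igf1, Socs2 and Cish (-8.40 ± 0.41, -5.08 ± 0.31 and -4.48 ± 0.44) were among the lower ones. Sex, age and culture cannot be told apart in these values.

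**Figure D5:**
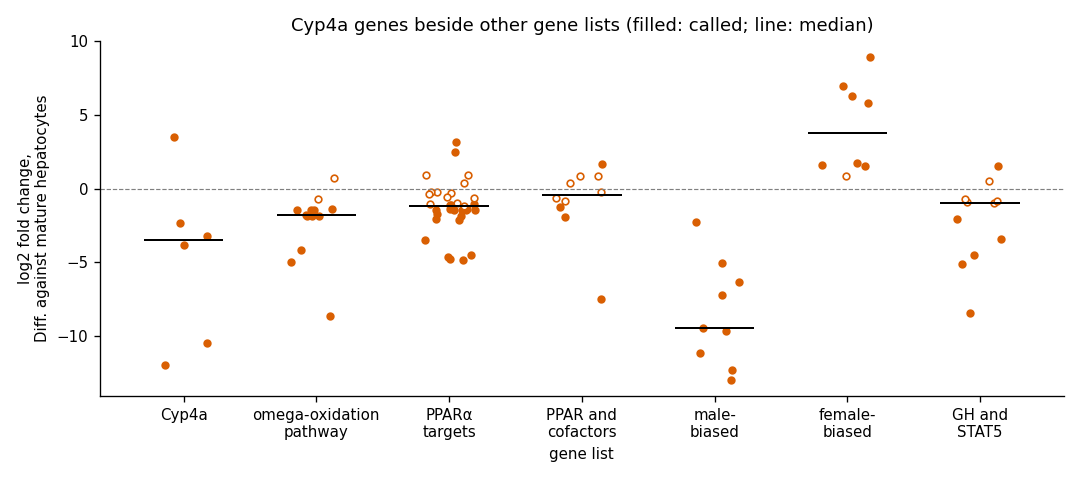
Log2 fold change of each tested gene, Diff. against mature hepatocytes, in the Cyp4a family and 6 other gene lists, filled where called, with a line at each median (sideways scatter is arbitrary). The Cyp4a median is -3.51, that of the male-biased genes -9.43 and that of the female-biased genes 3.79, and Cyp4a31 is the single Cyp4a gene above 0.

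Genes with the most similar course were picked by Pearson's r of log2 CPM over the 12 libraries, among 13145 other tested genes with a mean of at least 1 CPM. These points share 3 groups, so high values are common, and no p is given. Cyp4a12a was closest to Serpina3k (r = 0.998), Ido2 (0.997) and Mug1 (0.995), of which Serpina3k and Mug1 encode plasma protease inhibitors. Cyp4a12b was closest to Slc15a5 (0.999), Mup16 (0.998) and Bst2 (0.998). Cyp4a10 was closest to Igfbp2 (0.994) and Apoa5, an apolipoprotein gene (0.993). Cyp4a14 was closest to the transcriptional repressor gene Bcl6 (0.992), Igfbp2 (0.988) and Ipmk (0.988). Cyp4a32 was closest to Asic5 (0.993), Rnf39 (0.992) and the glucose-6-phosphatase gene G6pc (0.992). Cyp4a31 was closest to Vnn3 (0.993), a pantetheinase gene with 576 CPM in Diff. and 68.9 CPM in mature hepatocytes on average, then Slc35g1 (0.991) and Golga5 (0.991). Between members, r was 0.995 for Cyp4a10 and Cyp4a32 and 0.986 for the Cyp4a12 pair. Likeness of course did not follow the sequence groups throughout. Cyp4a14, with no 75-base sequence in another gene, had r of 0.989 with Cyp4a10, 0.985 with Cyp4a32 and 0.811 with Cyp4a31. For Cyp4a10 and Cyp4a31, which differ in 52 of 1527 coding bases, r was 0.772.

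A RefSeq promoter window (GRCm38), from 250 bases before to 50 after the gene start, was at hand for Cyp4a32 among the members. On neither strand did it hold an exact DR1 element (the core AGGTCA repeated with 1 base between, the form PPARα and RXR bind). A single core AGGTCA and the STAT5 motif TTCNNNGAA were absent from both strands too. Of 32851 such windows, 0.04%, 16.26% and 8.3% held them. These exact letters are absent from that window, which says nothing about binding there or elsewhere.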

How the data were processed

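Poly(A) RNA from 4 hepatoblast, 4 Diff. hepatocyte and 4 mature hepatocyte samples was sequenced as 75-bp single reads from a kit called strand-specific in the study's methods. The authors mapped reads with STAR (2.5.2b) to GRCm38 and deposited raw read counts per Ensembl gene, with no normalisation. The strand setting of the counts and their handling of reads that match several genes are not given in the sources used here. Groups came from the sample titles.

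Genes in which some library exceeded 10 counts were kept, scaled by TMM and fitted over all 12 libraries with edgeR (4.0.16; limma 3.58.1, R 4.3.3) by the quasi-likelihood test, with Benjamini-Hochberg adjustment over 17779 genes. Genes were called at an adjusted p under 0.01 and a log2 fold change beyond 1. DESeq2 (1.42.0) was an alternative. Standard errors came from the fitted fold change and its F statistic. The prior count of log2 CPM was 2. Exact permutation tests were two-sided over 70 assignments of 8 libraries. Counting intervals are exact 95% binomial intervals on summed counts. The fits were tested on simulated data.

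Annotation and transcripts were GENCODE M21 on GRCm38, which matched 53620 of the 53715 genes. Named genes were the 6 members, Ppara and, per list and comparison, up to 5 called genes with the largest change in each direction and a mean of at least 1 CPM, from which the text takes examples. The library values of Ehhadh, Fgf21 and Cpt1a, the levels of Por and Mup20, and some examples outside that rule were chosen after their values were seen. The members and gene lists were chosen with earlier results of these data known.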

Additional observations from a re-analysis of the deposited data

Results flagged for a closer look

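Of 18 sets of 4 libraries (6 genes in 3 groups), 4 had 1 library set apart from the other 3 by Dixon's test at the 95% level, where chance gives about 1 in 20 sets, or 0.9. Cyp4a10 reached 43.1 CPM in Diff. replicate 2, against 25.8 to 26.6 CPM in the other 3. Cyp4a12b stood at 68.1 CPM in mature replicate 4, against 117 to 125 CPM in the others. The other 2 were single libraries with any Cyp4a12b reads, which are 2 counts each. They were hepatoblast replicate 3 at 0.0647 CPM and Diff. replicate 4 at 0.0985 CPM. With 0 counts in the other 3 libraries the test sets apart any value above 0, so these 2 outcomes were fixed. The sets also share libraries, so the 4 cannot be weighed against the 0.9.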

How the results depend on the processing

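Leaving out 1 library at a time, 4 to 5 members were called for Diff. hepatocytes against hepatoblasts, and 6 in either comparison with mature hepatocytes. Over all other settings the counts were 4 to 5, 6, and 5 to 6. A filter of at least 10 counts in every library left no member to test. Of 216 fold changes with a library left out, 214 kept direction and call. The fitted value of Cyp4a12b, Diff. against hepatoblasts, went from -2.0 without Diff. replicate 4 to 2.33 without hepatoblast replicate 3. Each of these leaves 1 group at 0 counts, so neither is a measured fold or direction. Against mature hepatocytes its fold change was -14.31 without Diff. replicate 4, and mature against hepatoblasts 14.25 without hepatoblast replicate 3, against -11.93 and 12.31. The sum of Cyp4a10, Cyp4a31 and Cyp4a32 was -1.43 against mature hepatocytes, where Cyp4a10 makes up most of it, while Cyp4a31 alone stayed at 3.26 to 3.82 with a library left out.

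Deviations of same-numbered hepatoblast and Diff. libraries had r of 0.324, -0.059, 0.246 and 0.184 for replicates 1 to 4, and those with mature libraries -0.081 to 0.092. Hepatoblast and Diff. libraries of different number had r of -0.352 to 0.242. The numbers were not taken as pairs, since not every r exceeded 0.1. Whether some same-numbered libraries share a cell preparation was not tested. With a replicate block 4, 6 and 5 members were called in the 3 comparisons. Cyp4a14 against mature hepatocytes was then -2.95 (edgeR adjusted p = 0.013).

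Library totals in place of TMM moved the median of all genes to -0.335, -1 and 0.618, and the share of calls that were higher from 51.5%, 44.9% and 56.4% to 35.4%, 20.2% and 75.6%. No member reversed or changed call, and Cyp4a31 went from 3.50 to 4.05 and Cyp4a14 from -3.22 to -2.64 against mature hepatocytes. Depth limits the Cyp4a12 pair outside mature cells and every member in hepatoblasts.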
